A study of Mus musculus with 36 samples.

Results

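Livers make and hold a matrix in which collagen fibrils are coated and linked by proteoglycans and glycoproteins. The 9 genes described here encode such proteins: the small leucine-rich proteoglycans biglycan (Bgn), decorin (Dcn) and lumican (Lum), the large proteoglycan versican (Vcan), the adhesive glycoproteins fibronectin (Fn1), vitronectin (Vtn) and tenascin C (Tnc), and the matricellular proteins periostin (Postn) and osteonectin (Sparc). They were chosen by their symbols, and all 9 were found among the 24421 genes counted in each library. The study asked whether Fc(mML1)B3, an antibody Fc fragment carrying a grafted cyclic peptide that binds and activates the Met receptor as hepatocyte growth factor does, changes a diet-induced steatohepatitis with fibrosis. The comparisons below ask how the RNA of these 9 genes differed between Fc(mML1)B3 and plain Fc, and between the experiments with different diets.

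All 36 livers came from C57BL/6J mice, 7 weeks old when bought and kept for 1 further week, that had eaten CDAHFD, a diet rich in fat that lacks choline and takes its protein as amino acids, for 12 weeks. In the first experiment, male mice were then kept for 2 weeks on HFD, another diet rich in fat but with normal choline. They received a weekly subcutaneous dose of 4.3 mg/kg Fc (10 mice) or 5 mg/kg Fc(mML1)B3 (10 mice). In the second, male mice received a standard diet for 10 days. They were given the same doses of Fc (9 mice) or Fc(mML1)B3 (7 mice) on days 1, 4 and 7. Livers taken before dosing and livers of mice never fed CDAHFD are not analysed here, so no value below is a change from disease onset or from health. Each mouse gave 1 library, with 14949035 to 28466853 counts. The diet went together with the experiment, its length, the number of doses and the numbering of the files, and these cannot be told apart. Hepatocyte markers took 80691 to 155478 CPM (counts scaled to a common library size) in sum over the 36 livers, as in liver tissue, and of the 14 lists of cell type markers only those of pancreatic acinar cells and skeletal muscle held genes without a read in a whole group (Amy2a5, Myh4, Ckm, Tnnt3, Mb and Acta1).

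In injured liver, stellate cells and portal fibroblasts turn into myofibroblasts, which secrete collagens together with biglycan, decorin, lumican, periostin, tenascin C and osteonectin. Biglycan and decorin bind collagen fibrils and the cytokine TGF-beta through a leucine-rich core, and versican carries many chondroitin sulfate chains and binds hyaluronan. Hepatocytes, in contrast, secrete vitronectin and the plasma form of fibronectin into the blood, while fibroblasts make the cellular form of fibronectin.

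The gene models, on build mm10, were all free of exons shared with another gene. Bgn lay at chrX:73483635-73495936 on the plus strand, with 8 exon blocks and 2389 counted bases. Dcn and Lum were neighbours on the plus strand of chromosome 10, at chr10:97479500-97518162 with 9 blocks and 2084 bases and at chr10:97565501-97572703 with 3 blocks and 2075 bases. Vcan lay at chr13:89655310-89742512 on the minus strand, with 15 blocks and 14689 bases. Fn1 lay at chr1:71585473-71653234 on the minus strand with 46 blocks and 8425 bases, Vtn at chr11:78499120-78502325 on the plus strand with 8 blocks and 1745 bases, and Tnc at chr4:63959785-64047015 on the minus strand with 26 blocks and 7100 bases. Postn lay at chr3:54361107-54391041 on the plus strand with 23 blocks and 3295 bases, and Sparc at chr11:55394159-55420080 on the minus strand with 10 blocks and 2641 bases.

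Promoter sequence from RefSeq (GRCm38.p6) was at hand for 6 of the 9 genes, and 4 are shown because the results below turn on them: Bgn, Sparc and Tnc, which were lower in the standard diet experiment in Fc mice, and Vtn, which did not pass there. Each is the 250 bases before the annotated start, written in the direction of transcription. The start lies 34 bases before the gene start of the files for Bgn and at that start for the others. RefSeq also holds a start for Tnc 79 bases downstream, whose window overlaps the one shown and is not printed. The windows are chrX:73483351-73483600 (plus strand, Bgn), chr11:55420081-55420330 (minus, Sparc), chr4:64047016-64047265 (minus, Tnc) and chr11:78498870-78499119 (plus, Vtn). Capitals mark matches, on either strand, to 7 motifs.
Bgn: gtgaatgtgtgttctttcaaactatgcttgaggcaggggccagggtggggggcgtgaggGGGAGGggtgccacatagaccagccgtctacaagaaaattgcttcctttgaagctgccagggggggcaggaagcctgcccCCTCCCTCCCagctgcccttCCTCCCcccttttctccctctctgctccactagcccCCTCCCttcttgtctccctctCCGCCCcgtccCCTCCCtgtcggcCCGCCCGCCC
Sparc: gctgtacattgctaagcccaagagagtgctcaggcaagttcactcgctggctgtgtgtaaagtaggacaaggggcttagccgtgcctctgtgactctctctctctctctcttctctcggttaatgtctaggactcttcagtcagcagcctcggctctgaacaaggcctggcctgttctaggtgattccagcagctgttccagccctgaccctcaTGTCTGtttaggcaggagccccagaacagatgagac
Tnc: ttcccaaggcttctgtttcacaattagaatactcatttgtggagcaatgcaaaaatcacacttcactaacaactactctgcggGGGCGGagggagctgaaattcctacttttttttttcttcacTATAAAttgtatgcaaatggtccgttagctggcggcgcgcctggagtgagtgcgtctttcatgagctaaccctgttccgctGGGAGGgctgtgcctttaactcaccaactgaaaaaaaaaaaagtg
Vtn: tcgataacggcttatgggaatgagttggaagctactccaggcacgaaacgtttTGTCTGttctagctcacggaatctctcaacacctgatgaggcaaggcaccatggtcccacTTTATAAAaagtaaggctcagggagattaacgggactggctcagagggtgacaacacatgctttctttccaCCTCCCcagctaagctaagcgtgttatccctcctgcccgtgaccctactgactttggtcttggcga
The motifs searched were the TATA box TATAAA, the AP-1 site TGANTCA, the GC box GGGCGG, the CT element CCTCCC, the E-box CACGTG, the SMAD-binding CAGACA and the CCAAT box CCAAT. Matches to different motifs can overlap, and TGANTCA and CACGTG read the same on both strands. Over the 32817 promoter windows of the same length, 12.4% held TATAAA, 6.75% TGANTCA, 32.7% GGGCGG, 38.0% CCTCCC, 6.02% CACGTG, 17.1% CAGACA and 33.8% CCAAT. Bgn, with 64.4% G and C, held 6 matches to CCTCCC and 3 to GGGCGG and none to TATAAA. Sparc held 1 match, to CAGACA, which starts 36 bases before the start site. Tnc held 1 match to TATAAA, 1 to GGGCGG and 1 to CCTCCC, and the window of its downstream start held these and 1 match to CAGACA, 71 bases before that start. Vtn held 2 overlapping matches to TATAAA, 1 on each strand, and 1 each to CAGACA and CCTCCC. A match is a description of the letters and not a binding site. CCTCCC stood in 3 of the 4 windows, and no motif stood in all 4 of those printed.

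Per kilobase of exon, Vtn was the highest of the 9 genes in every group, and Vcan was the lowest. Among Fc mice under the HFD, Vtn reached a mean of 1448 CPM per kb (SD 216, n = 10), followed by Dcn at 268 ± 52.8, Bgn at 155 ± 34.9 and Fn1 at 130 ± 17.2. Sparc (73.8 ± 16.8) and Lum (59.5 ± 22.6) came next on the same scale. Postn (3.30 ± 1.94), Tnc (0.825 ± 0.197) and Vcan (0.0592 ± 0.0387) closed the order. The ranges of Bgn and Fn1 overlapped, as did those of Sparc and Lum, whereas all other neighbours were apart. Both genes of a pair were read in the same livers, so an overlap of ranges does not show that their levels were alike. In both groups of the standard diet experiment, the levels per kb of Fn1 and Dcn overlapped (174 ± 26.3 and 177 ± 23.0 in Fc mice, 169 ± 13.2 and 163 ± 26.1 in Fc(mML1)B3 mice), and both lay above Bgn in every mouse (83.3 ± 9.19 and 76.3 ± 10.3).

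**Figure D1:**
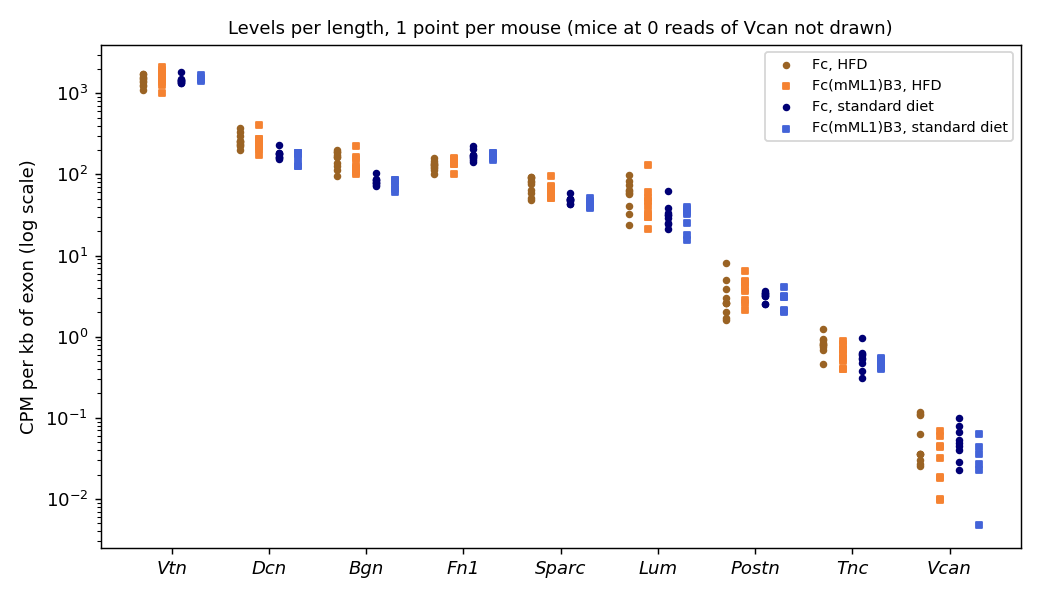
Level of each gene in CPM per kb of counted exon (vertical log axis), 1 point per mouse, in the 4 groups; genes are ordered by their mean in Fc mice under the HFD. Vtn lies highest and Vcan lowest in each group, and Fn1 lies beside Bgn under the HFD and beside Dcn under the standard diet.

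One library stood apart before any comparison. The liver of Fc(mML1)B3 mouse 5 under the HFD had the highest level in its group for Bgn, Dcn, Lum, Sparc and Tnc, and the lowest for Fn1 and Vtn. Its summed markers were also at the end of the group for myofibroblasts (753 CPM), portal fibroblasts (228 CPM) and cholangiocytes (859 CPM), and lowest for hepatocytes (80691 CPM). In the standard diet experiment, the liver of Fc mouse 6 was highest for Bgn, Dcn, Lum, Postn, Sparc and Tnc and lowest for Fn1 and Vtn. The values of these genes are also given without the library in question, in each comparison of 2 groups that it was part of.

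Under the HFD, none of the 8 genes tested passed between Fc(mML1)B3 and Fc with edgeR's quasi-likelihood test at an adjusted p below 0.05, against 14.5% of the 13299 genes tested. The largest difference in size was that of Tnc, a TGF-beta induced glycoprotein that loosens cell adhesion, which was 0.749-fold as high with Fc(mML1)B3 (log2 fold change −0.42, SE 0.16, adjusted p = 0.0756). In bulk tissue, fewer cells of a type and less RNA per cell cannot be told apart. At an unadjusted p below 0.05 the count was 1 (Tnc), DESeq2 passed 0 and limma-voom passed 1, and 5 of the 8 fitted differences were negative. The median log2 fold change of the 8 genes was −0.14, beside −0.01 over all genes tested. For none of the 8 did the groups stand fully apart, as they did for 0.91% of the genes tested.

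For the leucine-rich proteoglycans, the levels of treated and control mice lay within one another. Bgn was 230 CPM at its lowest, 390 at the median and 474 at its highest in Fc mice, and 239, 282 and 539 CPM in Fc(mML1)B3 mice. Dcn was 420, 531 and 784 CPM in Fc mice and 365, 494 and 848 CPM in Fc(mML1)B3 mice. Lum, which was the most variable of the 3 (coefficients of variation of 38.0% and 66.4%), was 49.9, 126 and 203 CPM in Fc mice and 44.0, 77.5 and 273 CPM in Fc(mML1)B3 mice. The groups overlapped for each, and mouse 5 set the upper end of the treated group in each. The fitted log2 fold changes were −0.20 (SE 0.14, adjusted p = 0.360) for Bgn, −0.09 (SE 0.13, adjusted p = 0.673) for Dcn and −0.31 (SE 0.30, adjusted p = 0.519) for Lum. Without mouse 5, they were −0.31 (adjusted p = 0.0731), −0.19 (0.199) and −0.61 (0.0684). Without Fc mouse 4, Dcn was −0.018 (adjusted p = 0.944) and Lum −0.20 (0.715). With either numbering series of the treated files alone, Lum was −0.81 (4 libraries, adjusted p = 0.143) or −0.041 (6 libraries, 0.957), Dcn −0.23 or 0.0088 and Bgn −0.28 or −0.14.

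Vcan was too low to be tested under the HFD. It had 6 to 32 reads in Fc mice and 0 to 24 in Fc(mML1)B3 mice, with medians of 0.526 and 0.375 CPM. Of the treated livers, 1 had no read, which allows up to 3 read pairs, as each end of a pair was counted. Fitted without the filter on low counts, the log2 fold change was −0.89 (SE 0.45, adjusted p = 0.222).

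Neither Fn1 nor Vtn passed. Counts per gene do not separate the plasma form of fibronectin from the cellular form. Fn1 was 859, 1088 and 1359 CPM in Fc mice and 860, 1187 and 1325 CPM in Fc(mML1)B3 mice. Vtn was 1890, 2542 and 3026 CPM in Fc mice and 1753, 2758 and 3628 CPM in Fc(mML1)B3 mice. Both pairs of groups overlapped over most of their range, although 3 of 10 treated mice exceeded every control for Vtn. The log2 fold changes were 0.13 for Fn1 (SE 0.09, adjusted p = 0.360) and 0.14 for Vtn (SE 0.12, adjusted p = 0.459), and without mouse 5 they were 0.17 (adjusted p = 0.129) and 0.20 (0.177), while Vtn was 0.094 without Fc(mML1)B3 mouse 2. Both were close to 0 with library totals (0.029 and 0.034), and Vtn was 0.34 (adjusted p = 0.133) with the 4 treated libraries of one file series and 0.0022 (0.995) with the other 6.

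Of the glycoproteins of fibroblasts, Tnc was 3.31, 5.68 and 8.81 CPM in Fc mice and 2.82, 4.05 and 6.34 CPM in Fc(mML1)B3 mice. The groups overlapped, with 2 of 10 treated mice under the lowest control. Its call turned on single libraries, since the adjusted p was 0.0284 without Fc(mML1)B3 mouse 5 (log2 fold change −0.49) and 0.0313 without Fc mouse 10. Postn, an integrin-binding protein of fibroblasts, had the widest spread among controls (5.34, 8.62 and 26.4 CPM) and lay at 7.04, 13.9 and 21.4 CPM in treated mice. Sparc, a collagen-binding protein, was 129, 205 and 247 CPM in Fc mice and 136, 165 and 252 CPM in Fc(mML1)B3 mice. For both the groups overlapped, and the log2 fold changes were 0.31 for Postn (SE 0.27, adjusted p = 0.465) and −0.19 for Sparc (SE 0.13, adjusted p = 0.328). Without Fc mouse 7 Postn was 0.56 (adjusted p = 0.0907), and without Fc(mML1)B3 mouse 5 Sparc was −0.27 (adjusted p = 0.104).

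**Figure D2:**
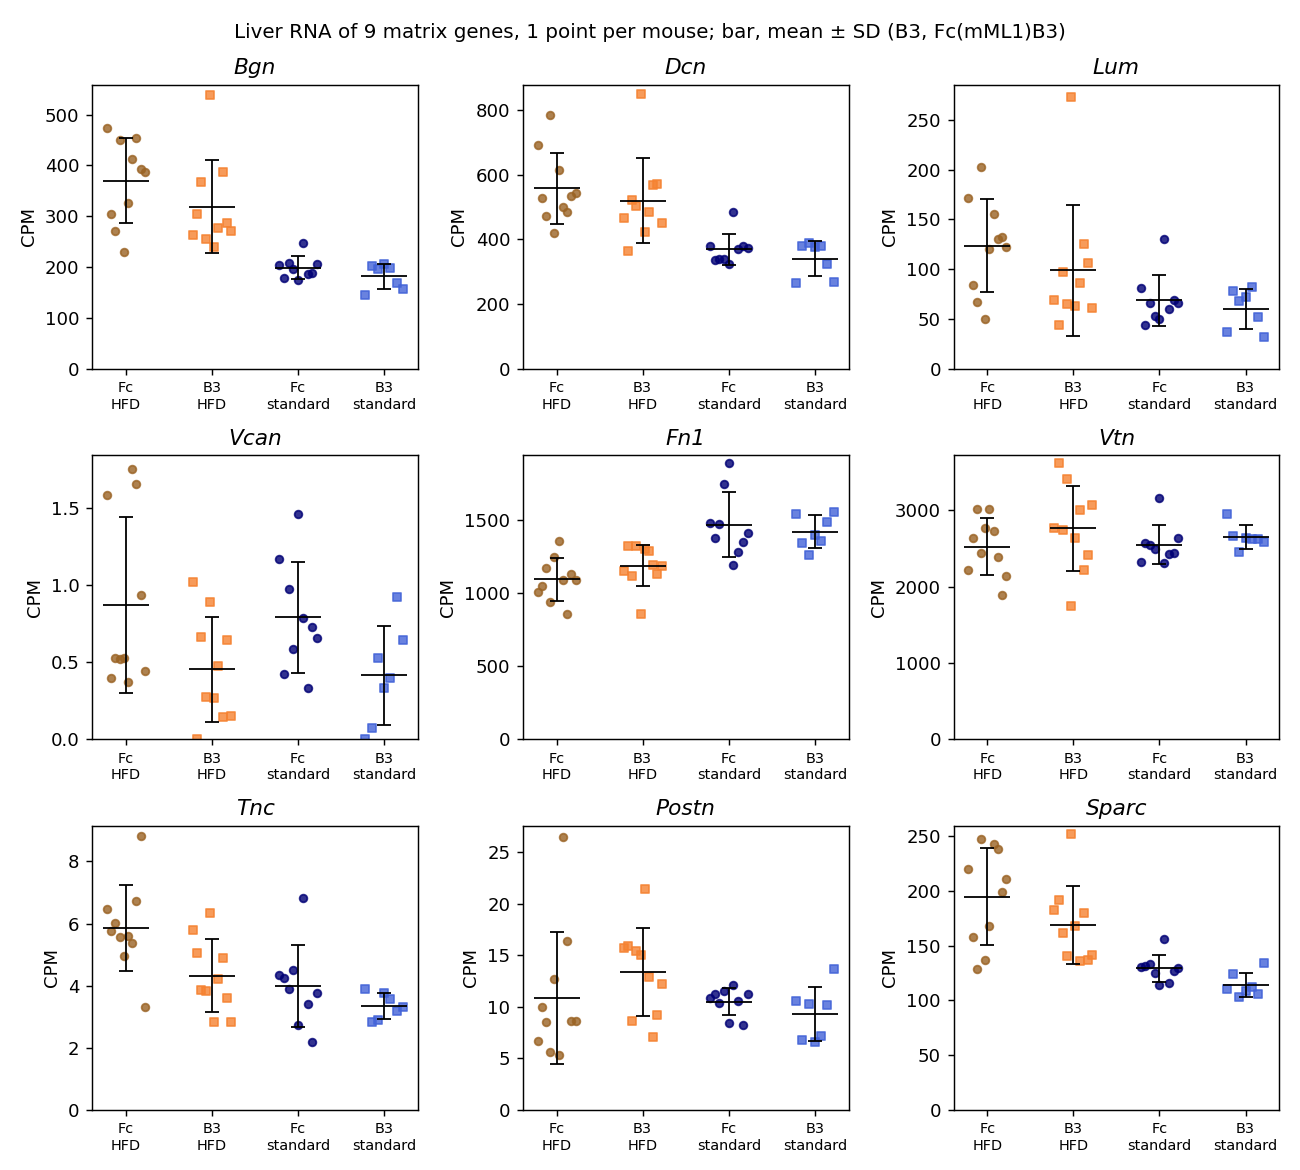
Level of each of the 9 genes in CPM (vertical axes, from 0), 1 point per mouse, by group; bars give the mean ± SD (n = 10, 10, 9 and 7). Bgn, Dcn and Sparc are lower and Fn1 higher in the standard diet experiment with either protein, while Fc and Fc(mML1)B3 overlap within each diet for every gene.

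Under the standard diet, Sparc was the 1 gene of 9 that passed between Fc(mML1)B3 and Fc, and it was lower, at 0.881-fold (log2 fold change −0.18, SE 0.06, adjusted p = 0.0452). Over all 13570 genes tested, 16.0% passed, and 7.46% of the genes tested passed and were lower. Sparc was 114 CPM at its lowest, 129 at the median and 156 at its highest in Fc mice, and 103, 111 and 133.98 CPM in Fc(mML1)B3 mice. The groups overlapped, with 5 of 7 treated mice under the lowest control and 2 among the controls, as did the groups of each of the other 8 genes, while 2.93% of all genes tested had groups that did not overlap. The call was close to the threshold: 12 of the 16 fits that left out 1 mouse lost it (adjusted p 0.0504 to 0.0999), a single fit of all 36 libraries gave an adjusted p of 0.465, and the log2 fold change stayed between −0.23 and −0.15 in the fits without 1 mouse. Without Fc mouse 6 it was −0.15 (adjusted p = 0.0770). With only the 4 Fc libraries that carry file numbers continuous with those of the Fc(mML1)B3 libraries, it was −0.21 (adjusted p = 0.130).

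The other 8 genes did not pass. Bgn was 175, 195 and 248 CPM in Fc mice and 146, 197 and 206 CPM in Fc(mML1)B3 mice. Dcn was 324, 369 and 483 CPM against 265, 377 and 388 CPM, and Lum was 43.6, 66.2 and 130 CPM against 32.2, 68.5 and 81.6 CPM. For these 3 proteoglycans the medians were alike and the groups overlapped, with 3, 3 and 2 of 7 treated mice under the lowest control. Their log2 fold changes were −0.13 (SE 0.08, adjusted p = 0.279), −0.12 (SE 0.09, adjusted p = 0.415) and −0.20 (SE 0.25, adjusted p = 0.641). Fc mouse 6 was the highest control for all 3, and without it they were −0.089 (adjusted p = 0.439), −0.070 (0.620) and −0.029 (0.946). Over the other alternative fits, Dcn ran from −0.24 to −0.078 and Lum from −0.44 to −0.11, and neither passed in any. Without Fc(mML1)B3 mouse 1, Bgn was −0.083.

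Vcan gave the largest fitted difference under the standard diet and the least certain one. It was 0.334, 0.725 and 1.46 CPM in Fc mice and 0, 0.397 and 0.924 CPM in Fc(mML1)B3 mice, from 8 to 30 and from 0 to 22 reads. The log2 fold change was −0.94 (SE 0.44, adjusted p = 0.165), and the groups overlapped.

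Among the glycoproteins, Fn1 was 1194, 1410 and 1891 CPM in Fc mice and 1258, 1399 and 1556 CPM in Fc(mML1)B3 mice. Vtn was 2311, 2500 and 3164 CPM against 2454, 2629 and 2959 CPM. Their log2 fold changes were −0.05 (SE 0.08, adjusted p = 0.722) and 0.05 (SE 0.06, adjusted p = 0.598), the smallest of the 9 in this diet. Tnc lay at 2.18, 3.90 and 6.82 CPM in Fc mice and at 2.83, 3.30 and 3.89 CPM in Fc(mML1)B3 mice (log2 fold change −0.26, SE 0.17, adjusted p = 0.337), with every treated mouse inside the range of the controls, and without Fc mouse 6 its log2 fold change was −0.12 (adjusted p = 0.633). Postn lay at 8.26, 10.9 and 12.1 CPM against 6.61, 10.1 and 13.6 CPM (−0.18, SE 0.13, adjusted p = 0.409). Without Fc mouse 6, Fn1 was −0.086, Vtn 0.034 and Postn −0.15. Leaving out other single mice took Postn from −0.30 (without Fc(mML1)B3 mouse 7, adjusted p = 0.113) to −0.11 (without mouse 4, 0.625), and Vtn from 0.026 (without Fc(mML1)B3 mouse 1) to 0.099 (without Fc mouse 5). The median log2 fold change of the 9 genes was −0.18, beside −0.01 over all genes tested, and 8 of the 9 were negative.

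The effect of Fc(mML1)B3 was compared between the experiments with an interaction term over all 36 libraries. None of the 9 genes passed, against 8.92% of 14105 genes, none had an unadjusted p below 0.05, and DESeq2 and limma-voom passed 0. The interaction, as the log2 fold change under the standard diet minus that under the HFD, was widest for Postn (−0.47, SE 0.33, adjusted p = 0.469, with −0.76 and 0.0605 by limma-voom and −0.84 and 0.226 with the replicate block) and was 0.18 for Tnc (SE 0.24), −0.16 for Fn1 (SE 0.12), 0.12 for Lum (SE 0.41), 0.09 for Bgn (SE 0.19), −0.07 for Vtn (SE 0.14), −0.03 for Vcan (SE 0.65), 0.03 for Sparc (SE 0.16) and −0.02 for Dcn (SE 0.17). With standard errors of this size, a difference between the diets was not shown, nor was its absence. By limma-voom the interactions of Vcan (−0.61), Lum (0.37) and Bgn (0.20) were wider, and none passed.

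Between the experiments, more of the genes passed. In mice given Fc, 6 of the 9 genes passed, of which Bgn, Dcn, Lum, Sparc and Tnc fell and Fn1 rose in the standard diet experiment. Of all 13506 genes tested 48.7% passed, 24.9% lower and 23.7% higher, so that calls were common. The median log2 fold change of the 9 genes was −0.56, beside −0.04 over all genes. The comparison between experiments in Fc(mML1)B3 mice uses other animals in both groups and is given after it.

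Bgn fell to 0.538-fold (log2 fold change −0.90, SE 0.11, adjusted p = 1.11e-06), with a mean of 370 ± 83.4 CPM (SD, n = 10) under the HFD and 199 ± 21.9 CPM (SD, n = 9) under the standard diet. Of the 9 mice on the standard diet, 8 lay under the lowest of the HFD mice, and the groups overlapped only through mouse 6, at 248 CPM, and the lowest HFD mouse, at 230 CPM. Dcn fell to 0.662-fold (−0.60, SE 0.10, adjusted p = 4.85e-05), from 558 ± 110 to 369 ± 48.0 CPM, again with 8 of 9 mice under the lowest HFD mouse. Sparc fell to 0.663-fold (−0.59, SE 0.11, adjusted p = 1.26e-04), from 195 ± 44.4 to 129 ± 12.0 CPM. For Sparc, 4 of 9 mice lay under every HFD mouse. None of the 9 genes had groups that were fully apart here, against 9.81% of all genes tested.

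Lum fell to 0.557-fold (−0.84, SE 0.24, adjusted p = 0.00773), from 124 ± 46.9 to 68.7 ± 25.7 CPM, and Tnc to 0.679-fold (−0.56, SE 0.17, adjusted p = 0.0114), from 5.86 ± 1.40 to 3.99 ± 1.31 CPM. In both the groups overlapped widely, with 1 and 2 of 9 mice under the lowest HFD mouse. Fn1 moved the other way, to 1.34-fold (0.42, SE 0.09, adjusted p = 8.62e-04), from 1094 ± 145 to 1468 ± 222 CPM, with 6 of 9 mice above every HFD mouse. Which form of fibronectin rose was not tested. Vtn, a glycoprotein of plasma, was 2527 ± 377 and 2548 ± 255 CPM (0.01, SE 0.09, adjusted p = 0.943). Postn (−0.05, SE 0.24) and Vcan (−0.12, SE 0.34) did not pass either.

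Leaving out any 1 of the 19 mice left the 6 calls in place. Without standard diet mouse 6, Bgn was −0.94, Dcn −0.65, Sparc −0.63, Lum −1.01, Tnc −0.69 and Fn1 0.46, with Postn at −0.073 and Vtn at 0.027. Using only the 4 Fc libraries of the standard diet experiment with the higher file numbers left 3, Bgn, Dcn and Sparc, and the values of Lum (−0.59, adjusted p = 0.190), Fn1 (0.27, adjusted p = 0.0916) and Tnc (−0.52, adjusted p = 0.120) kept their signs.

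In mice given Fc(mML1)B3, 5 of the 9 genes passed, against 37.8% of 13627 genes (18.8% lower and 18.9% higher). Bgn fell to 0.564-fold (log2 fold change −0.83, SE 0.14, adjusted p = 1.47e-04), with means of 319 ± 90.9 CPM under the HFD (SD, n = 10) and 182 ± 24.6 CPM under the standard diet (SD, n = 7). Sparc fell to 0.666-fold (−0.59, SE 0.11, adjusted p = 2.38e-04), from 169 ± 35.7 to 114 ± 11.1 CPM. Every mouse on the standard diet was lower than every HFD mouse for both genes, a separation in this direction that 2.69% of all genes tested had.

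Dcn fell to 0.645-fold (−0.63, SE 0.13, adjusted p = 9.24e-04), from 520 ± 131.1 to 340 ± 54.5 CPM, and 3 of 7 mice lay under the lowest HFD mouse. Fn1 rose to 1.18-fold (0.24, SE 0.08, adjusted p = 0.0279), from 1187 ± 140 to 1422 ± 111 CPM, with 6 of 7 mice above every HFD mouse. Postn fell to 0.690-fold (−0.53, SE 0.21, adjusted p = 0.0471), from 13.3 ± 4.29 to 9.30 ± 2.59 CPM, a call that only 4 of the 17 fits without 1 mouse kept. The call of Fn1 was lost with upper-quartile scaling (adjusted p = 0.0692) and with the replicate block (0.0761), and that of Postn with a filter at 0.5 CPM (0.0530), without a filter (0.0761) and in 1 fit of all 36 libraries (0.0934).

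Lum (−0.74, SE 0.34, adjusted p = 0.0981), Tnc (−0.40, SE 0.16, adjusted p = 0.0539), Vcan (−0.17, SE 0.58) and Vtn (−0.08, SE 0.11) did not pass. Tnc did pass with DESeq2 (adjusted p = 0.0386), upper-quartile scaling (0.0271), halved counts (0.0421) and the replicate block (0.0477). Without HFD mouse 5, Bgn was −0.71 (adjusted p = 1.34e-05), Sparc −0.51 (6.78e-05), Dcn −0.53 (2.45e-04) and Fn1 0.20 (0.0195), and Postn lost its call (−0.51, adjusted p = 0.0702), while Lum was −0.43 (0.176), Tnc −0.33 (0.0901) and Vtn −0.14 (0.230). Without HFD mouse 2, Vtn was −0.028. Without standard diet mouse 1 or mouse 6, 3 genes passed, Bgn, Dcn and Sparc.

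**Figure D3:**
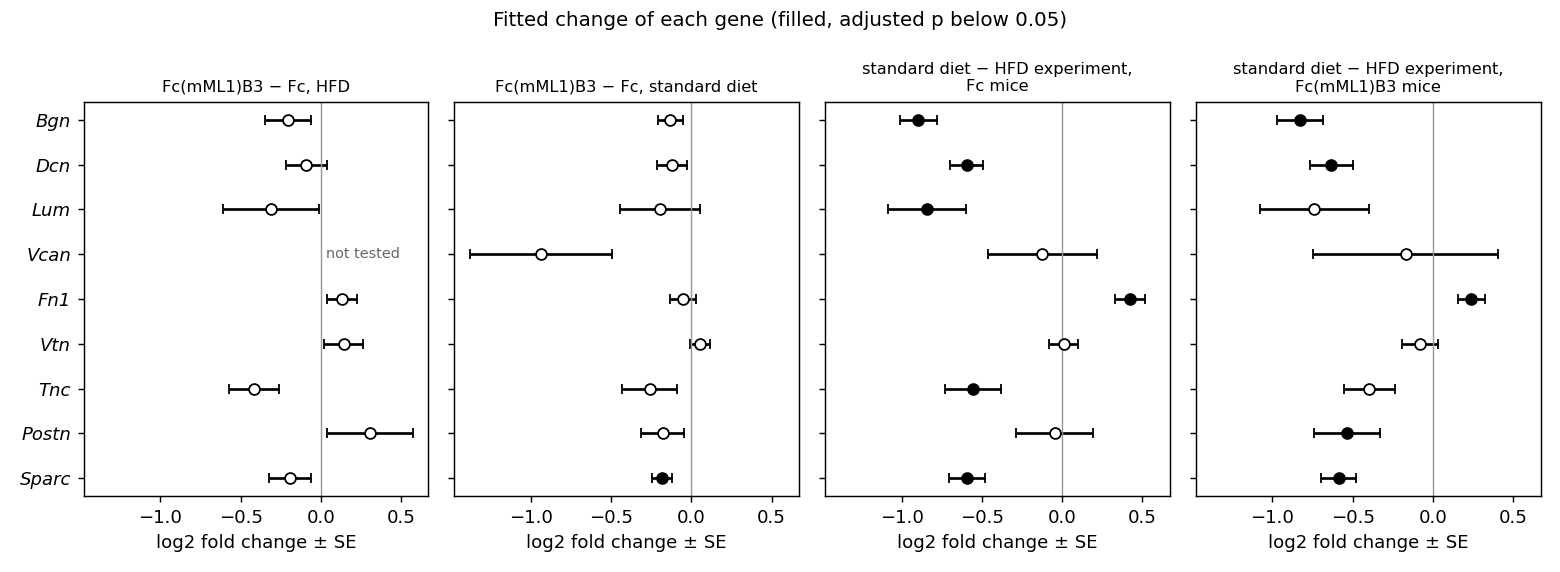
Fitted log2 fold change (horizontal axes) with its standard error for each gene in 4 comparisons; filled points passed at an adjusted p below 0.05, and Vcan was not tested under the HFD. Between Fc(mML1)B3 and Fc 1 point is filled, with values from −0.42 (Tnc) to 0.31 (Postn) under the HFD and from −0.94 (Vcan) to 0.05 (Vtn) under the standard diet, while 6 and 5 points are filled between the experiments.

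The opposite course of Fn1 and Bgn showed in their ratio within each library, which does not depend on the scaling between libraries. Fn1 had 1.89 to 5.41 reads per read of Bgn in Fc mice under the HFD (median 2.85) and 1.60 to 5.46 in Fc(mML1)B3 mice (median 4.37). In the standard diet experiment the ratio was 4.81 to 10.8 (median 7.19) in Fc mice and 6.39 to 10.6 (median 6.85) in Fc(mML1)B3 mice. The ranges touched only in Fc mice. Bgn and Dcn, which share fibril-binding cores, kept a closer ratio, with medians of 0.630 and 0.586 reads of Bgn per read of Dcn under the HFD and of 0.538 and 0.532 under the standard diet.

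Within groups, the 9 genes fell apart in the way they varied from mouse to mouse. Correlations were computed for all 36 pairs in each of the 4 groups, 144 relations in all, on log2 CPM with permutation tests (exact for groups of 7 and 9). Of these, 13 passed at an adjusted p below 0.05 by Pearson's r, and 4 of the 13 also by Spearman's rho. The values of a library share its depth and scaling, and the sets described next were chosen after their values were seen. The correlations used 1 scaling of the libraries (TMM), and how far they depend on it was not tested. Fc(mML1)B3 mouse 5 under the HFD had the highest scaling factor of its group (1.20), and a high factor lowers every CPM of a library.

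The 6 pairs among Bgn, Dcn, Lum and Sparc were positive in both HFD groups and in Fc mice on the standard diet, with r from 0.53 to 0.95, 0.44 to 0.97 and 0.75 to 0.93. In Fc(mML1)B3 mice on the standard diet, 3 of the 6 were negative (r from −0.39 to 0.98, n = 7). The closest pairs that passed were Dcn with Lum in Fc(mML1)B3 mice under the HFD (permutation test, r = 0.97, adjusted p = 0.00216, rho = 0.94, adjusted p = 0.0144, n = 10) and Bgn with Lum in Fc mice under the HFD (permutation test, r = 0.95, adjusted p = 0.00216, rho = 0.90, adjusted p = 0.0310, n = 10). Without the 2 mice farthest from the median of the first gene, these were 0.88 and 0.83. In the same check Dcn with Sparc turned negative in Fc(mML1)B3 mice under the HFD (0.44 to −0.08). It did so too in Fc mice on the standard diet (0.75 to −0.26). In Fc(mML1)B3 mice on the standard diet, Sparc with Bgn (0.41), Dcn (0.29) and Lum (0.59) turned positive. Bgn with Dcn, which did not pass in any group, rested on the 2 farthest mice in 3 groups, since r went from 0.63 to 0.30, from 0.78 to 0.19 and from 0.83 to 0.18 without them.

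Fn1 and Vtn mostly ran against that set. All 8 pairs of either with Bgn, Dcn, Lum or Sparc were negative in each HFD group and in Fc mice on the standard diet, as were 6 of 8 in Fc(mML1)B3 mice on the standard diet. Some turned positive without the 2 mice farthest from the median of the first gene. These were Dcn with Fn1 in Fc mice (−0.28 to 0.21) and Sparc with Vtn in Fc(mML1)B3 mice (−0.56 to 0.008) under the HFD. On the standard diet they were Bgn with Fn1 (−0.52 to 0.38) and Sparc with Vtn (−0.59 to 0.29) in Fc mice, and Lum with Vtn (−0.41 to 0.10) in Fc(mML1)B3 mice. Fn1 with Sparc turned negative in that last group (0.38 to −0.62). The strongest by rank, Dcn with Fn1 in Fc(mML1)B3 mice on the standard diet, had r = −0.91 (exact permutation test, adjusted p = 0.0122) and rho = −0.96 (adjusted p = 0.0667, n = 7), and r was −0.86 without the 2 mice farthest from the median of Dcn. Dcn with Fn1 under the HFD with Fc(mML1)B3 rested on mouse 5 and 1 other, since r moved from −0.88 (permutation test, adjusted p = 0.0435, n = 10) to −0.47 without the 2 mice farthest from the median. Lum with Vtn in that group was −0.92 (permutation test, adjusted p = 0.00681, n = 10) and −0.74 without 2 mice. Fn1 and Vtn were positive with each other in each group, at r = 0.44, 0.84, 0.72 and 0.61, of which the value in Fc(mML1)B3 mice under the HFD passed (permutation test, adjusted p = 0.0435, n = 10) and was 0.50 without 2 mice.

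**Figure D4:**
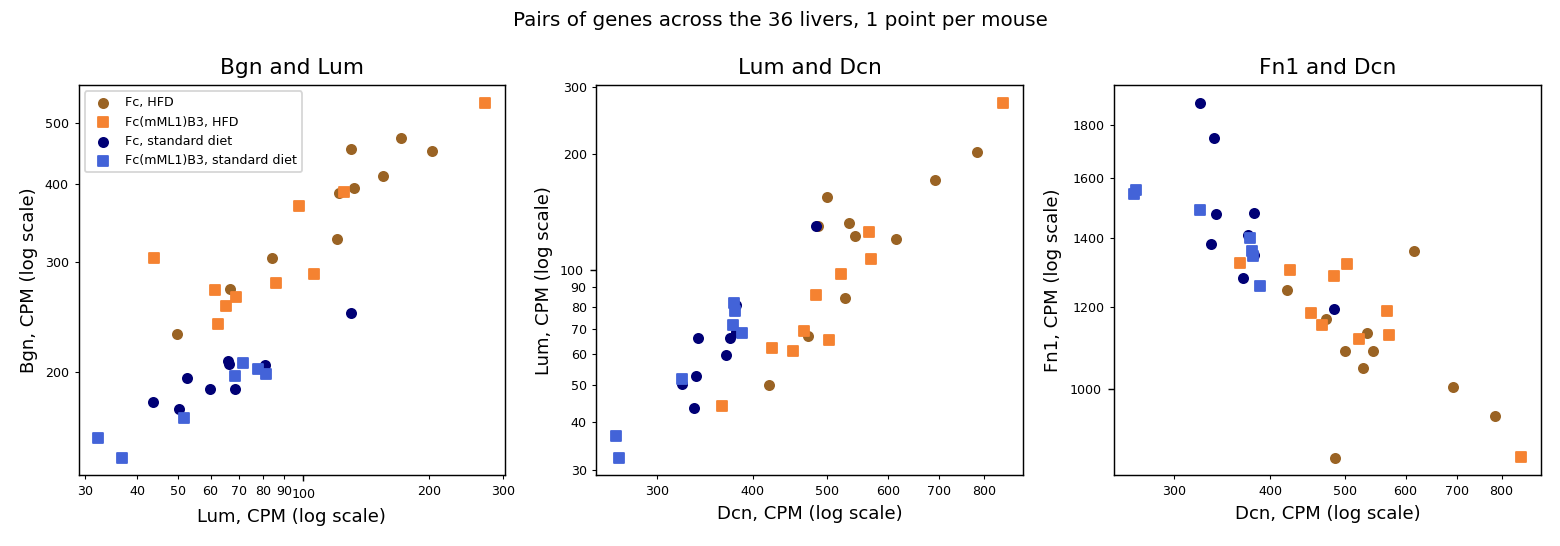
Levels of 3 pairs of genes in CPM (both axes on log scales), 1 point per mouse, coloured by group: Bgn against Lum, Lum against Dcn and Fn1 against Dcn. Bgn and Lum rise together, as do Lum and Dcn, while Fn1 is lower in livers with more Dcn, and the single point at the far right of each panel is Fc(mML1)B3 mouse 5 under the HFD.

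The genes whose pattern was most like each of the 9 were found as the 5 with the highest correlation of deviations from the group means over the 36 libraries, among 14105 genes. These are descriptions with no test. Bgn was closest to Olfml3 (r = 0.94), Timp2, Cd34, Col4a5 and Itga8, and Lum to Serpine2 (0.96), Emp1, the fibroblast receptor gene Pdgfra, Itga8 and Capn6. Dcn was closest to Pamr1 (0.92), Rbms3, Lum (0.91), Gsn and Cpxm1. Sparc was closest to the fibrillar collagen genes Col1a1 (0.89), Col3a1 and Col1a2, and to Ccdc80 and Col5a2.

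Fn1 and Vtn had neighbours of another kind, genes of secreted plasma proteins for the most part. Those of Fn1 were Cpn2 (r = 0.92), C4b, Prg4, Tfr2 and Hrg, and those of Vtn were Ambp (0.93), Serpina11, Serping1, Cfi and F10. Postn (Tspan15, r = 0.78, Rgs4, Gucy2c, Bmper and 2310034O05Rik), Tnc (Lefty1, r = 0.66, AA414768, Sort1, Itga11 and Zfp287) and Vcan (led by Tcf24, r = 0.66) had weaker ones.

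Other genes of the same matrix families were counted in 11 lists. With each gene counted once, 76 of 155 tested passed between the experiments in Fc mice (43 lower and 33 higher), or 49.0% beside 48.7% of all genes, so the lists together stood at the share of all genes, and a count near 24.9% lower or 23.7% higher is no result about a list. Between the experiments in Fc mice, the fibulins and microfibril glycoproteins, which link elastic fibres, fell in 13 of 16 tested and rose in none, with a median log2 fold change of −0.85. Emilin1 fell by 0.88 on the log2 scale (SE 0.12, adjusted p = 3.75e-06), Efemp2 by 0.95 (SE 0.13) and Fbln5 by 1.09 (SE 0.15). The matricellular list apart from Postn and Sparc fell in 7 of 12 and rose in none (median −0.64), led by the SPARC relative Smoc2 (−1.06, SE 0.15, adjusted p = 9.73e-06), Igfbp7 (−0.69) and Wisp2 (−1.39).

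The small leucine-rich proteoglycans other than Bgn, Dcn and Lum fell in 4 of 8 and rose in 1 (median −0.57). Podn (−1.23, SE 0.16, adjusted p = 2.88e-06), Prelp (−0.65) and the collagen-binding fibromodulin gene Fmod (−1.02) fell. Chad, the gene of chondroadherin, rose from 0.383 to 2.60 CPM (2.701, SE 0.21, adjusted p = 1.64e-09). At so low a level under the HFD, Chad could pass the filter on low counts through the standard diet mice alone, so its direction is no result about the list. Adhesive glycoproteins fell in 4 of 12 and rose in 2 (median −0.28), near the shares of all genes, led by the TGF-beta induced Tgfbi (−0.98, adjusted p = 1.50e-08), Tnxb (−1.39) and Ecm1 (−0.49), with Nid2 (0.59) and Lamc1 (0.21) higher. TGF-beta induced genes outside the 9 fell in 5 of 10 and rose in 1 (median −0.88), among them Col1a1 (−1.18) and Pmepa1 (−0.92).

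Other families were split or went the other way. Heparan sulfate and other proteoglycan cores fell in 1 of 14 (Srgn, −0.63) and rose in 5 (Gpc4 by 0.43, Sdc1 by 0.40 and Sdc4 by 0.36), and the hyaluronan list rose in 3 of 7 and fell in none (Hyal1, a hyaluronidase, by 0.95). Glycosaminoglycan chain enzymes fell in 6 of 34 and rose in 7, from Chst12 (−0.78) to the heparan sulfate sulfotransferase Ndst1 (1.34, SE 0.14, adjusted p = 2.19e-07). Integrin subunits fell in 1 of 11 (Itgb5, −0.44) and rose in 3 (Itgav, 0.44), and matrix proteases fell in 5 of 15 and rose in 3 (Htra1, −1.17 and Mmp2, −1.01, against Mmp19, 0.67). Plasma glycoproteins of hepatocytes, the list nearest to Vtn and plasma fibronectin, rose in 9 of 20 and fell in none (Itih1 by 0.49, Itih2 by 0.41 and the fibrinogen gene Fga by 0.66).

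**Figure D5:**
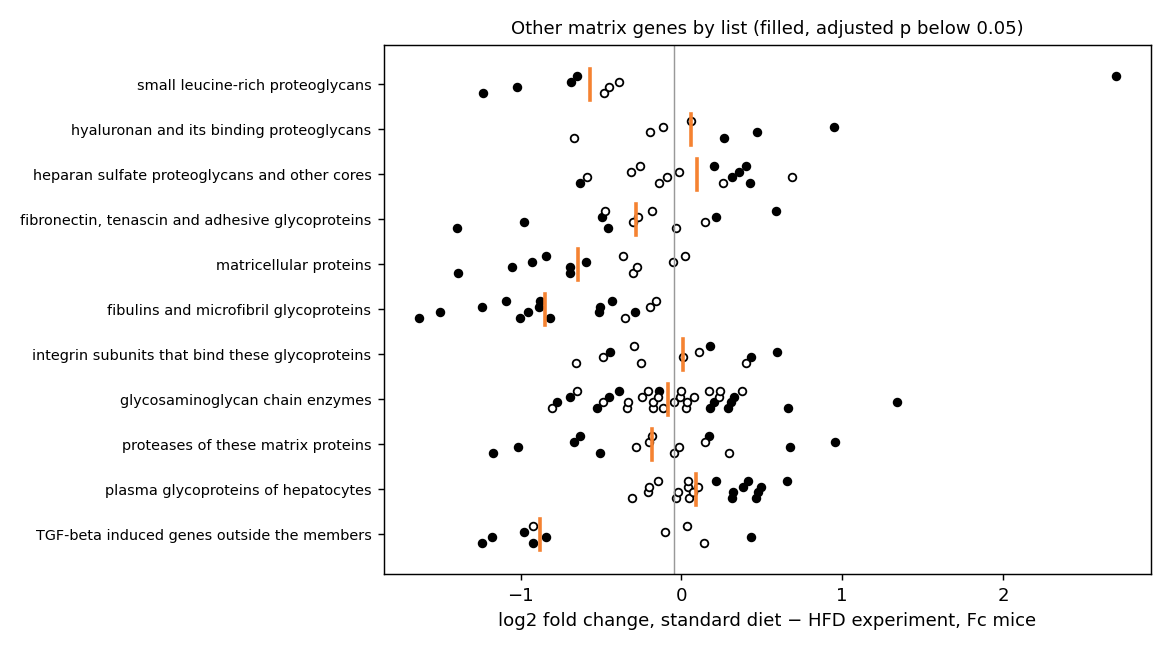
Log2 fold change between the standard diet and the HFD experiment in Fc mice (horizontal axis) of each tested gene in 11 lists of matrix and related genes, without the 9 genes themselves; filled points passed at an adjusted p below 0.05, orange bars are list medians and the grey line is the median of all genes, −0.04. The fibulin, matricellular and leucine-rich proteoglycan lists lie to the left, and filled points of hepatocyte plasma glycoproteins lie to the right.

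In Fc(mML1)B3 mice, 60 of 155 genes of the lists passed (47 lower and 13 higher), or 38.7% beside 37.8% of all genes, of which 18.8% were lower and 18.9% higher. The same lists gave 9 of 16 fibulins and microfibril genes lower and none higher (median −0.72), 5 of 12 matricellular genes lower (median −0.62) and 3 of 8 leucine-rich proteoglycans lower and 1 higher (median −0.67). Adhesive glycoproteins were lower in 4 of 12 (median −0.30) and TGF-beta induced genes in 6 of 10 with 1 higher (median −0.46). Plasma glycoproteins fell in 4 of 20 and rose in 2 (median −0.003). Of 8 hyaluronan genes none passed by edgeR (1 at an unadjusted p below 0.05), and 7 were negative (median −0.29). Heparan sulfate cores were lower in 1 and higher in 1 of 14, integrins lower in 3 of 11, chain enzymes lower in 8 and higher in 7 of 34, and proteases lower in 7 and higher in 1 of 14.

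Between Fc(mML1)B3 and Fc under the HFD, 13 of 152 genes of these lists passed (5 lower and 8 higher), or 8.55% beside 14.5% of all genes (6.5% lower and 7.99% higher). Omd (0.54, SE 0.16, adjusted p = 0.0232) rose among 7 leucine-rich proteoglycans, Hapln4 (0.63) among 7 hyaluronan genes and Gpc4 (0.35, adjusted p = 0.00131) among 13 heparan sulfate and other cores. Fbln5 (−0.44, adjusted p = 0.0318) and Emilin1 (−0.38, adjusted p = 0.0481) fell among 16 fibulins and microfibril genes (median −0.34), and Wisp1 (−0.54) among 12 matricellular genes (median −0.20). The plasminogen activator gene Plat (−0.99, SE 0.22, adjusted p = 0.00295) fell and the procollagen proteinase gene Bmp1 (0.62, adjusted p = 1.19e-04) and Adamts1 (0.53) rose among 14 proteases. Itga5, the alpha chain of the fibronectin receptor, rose (0.52, SE 0.08, adjusted p = 9.23e-05), 1 of 11 integrins, and 2 of 34 chain enzymes rose (Chst13, 0.70 and B3gat3, 0.26). None of 12 adhesive glycoproteins and none of 20 plasma glycoproteins passed by edgeR (0 and 1 at an unadjusted p below 0.05).

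Under the standard diet, 29 of 156 genes of these lists passed (26 lower and 3 higher), or 18.6% beside 16.0% of all genes (7.46% lower and 8.51% higher). Tsku, a secreted leucine-rich proteoglycan of hepatocytes, rose from 80.3 to 281 CPM (1.80, SE 0.26, adjusted p = 2.66e-04), while Chad fell (−0.61), the other 6 of 8 genes of that list not passing. Thbs2 (−0.74, SE 0.19, adjusted p = 0.0132) and Thbs1 (−0.69, adjusted p = 0.0143) fell among 12 matricellular genes, Nid1 (−0.27, adjusted p = 2.84e-04) and Lamb1 (−0.31) among 12 adhesive glycoproteins, and Fbn1 (−0.35), Fbn2 (−1.31) and Emilin1 (−0.25) among 16 fibulins and microfibril genes. Hmmr (−0.79) and Cd44 (−0.31) fell among 7 hyaluronan genes, the perlecan gene Hspg2 (−0.25) among 14 cores, and 4 of 12 integrins (Itgav by 0.23, Itga3 by 0.29 and Itga9 by 0.17). Of 15 proteases 4 fell (Adamts9, −0.91, adjusted p = 1.93e-04), of 34 chain enzymes 4 fell and 2 rose (B3gat3, −0.27 and Fam20b, 0.25), of 20 plasma glycoproteins the fibrinogen genes Fga (−0.52), Fgg (−0.45) and Fgb (−0.43) fell, and of 10 TGF-beta induced genes Itgav alone passed. The interaction passed for 9 of 159 genes of these lists, or 5.66% beside 8.92% of all genes, which were Hapln4 (−0.77), Sdc4 (−0.49), Gpc4 (−0.33), Itga5 (−0.43), B3gat3 (−0.51), Fam20b (0.34), Bmp1 (−0.52), Fga (−0.62) and Fgg (−0.59).

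Markers of cells that make these proteins moved with the comparison between experiments. In Fc mice, where 24.9% of all genes were lower and 23.7% higher, myofibroblast markers were lower in 6 of 7 tested (Acta2, −1.37, SE 0.19 and Col1a2, −1.002, SE 0.16), and their sum over 10 genes was 281 to 627 CPM under the HFD and 251 to 421 CPM under the standard diet. Portal fibroblast markers were lower in 5 of 7 (Thy1, −0.84 and Entpd2, −0.42), with sums over 9 genes of 45.8 to 195 and 53.8 to 127 CPM. Quiescent stellate cell markers were lower in 4 of 10 and higher in 1 (Hand2, −0.81 and Rgs5, 0.77), with sums of 321 to 439 and 289 to 354 CPM. No gene of these 3 lists was without reads in a whole group.

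Cholangiocyte markers were lower in 4 of 7 (Cldn7, −1.28 and Epcam, −1.03; sums over 8 genes of 169 to 869 and 230 to 504 CPM), macrophage markers in 5 of 10 (Cd68, −0.75 and Gpnmb, −0.80; 1008 to 2197 and 774 to 1333 CPM), and T and NK cell markers in 6 of 6 (Cd3g, −1.43 and Cd3e, −1.16; 5.73 to 24.7 and 4.55 to 9.13 CPM). B and plasma cell markers were lower in 5 of 6 (Mzb1, −1.72 and Jchain, −1.45), smooth muscle markers in 2 of 5 (Smtn, −0.49 and Des, −0.44), neutrophil markers in 2 of 4 (Retnlg, −1.22 and Csf3r, −0.38), and mesothelial markers in 1 of 8 (Wt1, −0.87). Endothelial markers were lower in 1 and higher in 1 of 8 (Fcgr2b, −0.26 and Kdr, 0.23), the 1 acinar gene tested did not pass (Cela1, −0.13), and no muscle marker was high enough to test. Hepatocyte markers rose in 2 of 8 and fell in none (Cps1, 0.78 and Hnf4a, 0.61). The part of these cells in the levels of the 9 genes was not tested.

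In Fc(mML1)B3 mice, where 18.8% of all genes were lower and 18.9% higher, markers were lower in 4 of 7 for myofibroblasts (Col1a2, −1.005 and Col1a1, −1.10), 3 of 10 for quiescent stellate cells, 3 of 7 for cholangiocytes (Cldn7, −1.48), 3 of 10 for macrophages and 1 of 6 for T and NK cells, and higher in none of these. None of 6 portal fibroblast markers (median −0.52) and none of 6 B and plasma cell markers (median 0.35) passed by edgeR (1 and 1 at an unadjusted p below 0.05). Hepatocyte (Cps1, 0.68 and Cyp2e1, −0.29), neutrophil (S100a8, 0.78 and Retnlg, −1.31) and mesothelial markers (Lrrn4, 1.25 and Wt1, −1.24) each had 1 lower and 1 higher, of 8, 5 and 8 tested. Endothelial markers were lower in 2 and higher in 1 of 8, smooth muscle markers lower in 1 of 5, and the 1 acinar gene tested did not pass. Between Fc(mML1)B3 and Fc under the HFD, where 6.5% of all genes were lower and 7.99% higher, Fc(mML1)B3 mice had lower B and plasma cell markers in 4 of 6 (Mzb1, −1.10 and Jchain, −1.24), lower neutrophil markers in 2 of 4 (Csf3r, −0.50 and S100a8, −1.46) and lower mesothelial markers in 2 of 7 (Krt18, −0.32 and Krt8, −0.27), while none of the 7 myofibroblast, 7 portal fibroblast, 7 cholangiocyte and 10 macrophage markers tested passed by edgeR (1, 2, 0 and 5 at an unadjusted p below 0.05). Hepatocyte markers were higher in 1 of 8, and quiescent stellate cell markers lower in 1 and higher in 1 of 10. Under the standard diet, where 7.46% of all genes were lower and 8.51% higher, 3 of 10 quiescent stellate cell markers fell (Ngfr, −0.87 and Pdgfrb, −0.51), 2 of 5 smooth muscle markers fell, Eln fell among 6 portal fibroblast markers (−1.14, SE 0.22, adjusted p = 0.00189), and none of 7 myofibroblast markers passed by edgeR (3 at an unadjusted p below 0.05). Hepatocyte markers were higher in 3 of 8 and endothelial markers in 1 of 8, and 1 of 8 mesothelial and 1 of 10 macrophage markers were lower.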

How the data were processed

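RNA of 36 mouse livers was sequenced in pairs of 100-base reads, 1 library per mouse. The deposited values are raw counts of reads per gene. To make them, the authors trimmed reads with Fastp, removed ribosomal RNA with Bowtie2 (2.4.5), aligned to mm10 with STAR (2.7.10a) and counted reads per gene with featureCounts of Subread 2.0.3. Per the file headers and methods, both ends had to align, each end was counted, reads with several alignments were left out and strand was ignored, so that 67.9 to 74.4% of low counts above 0 were even. A gene and an antisense partner cannot be told apart. Samples were grouped by their labels. Duplicates were looked for in the 147 within-group pairs of libraries, whose chi-square divided by its degrees of freedom was never under 6.30, and none was found.

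From the counts, each comparison was fitted on its own 2 groups with edgeR 4.0.16 (R 4.3.3), TMM, filterByExpr and the robust quasi-likelihood F-test, and p was adjusted by Benjamini-Hochberg over all genes tested. A gene passed at an adjusted p below 0.05. Standard errors were computed from F, as |log2 fold change| over its square root. CPM used TMM over all 36 libraries, so ratios of mean CPM can differ slightly from fitted folds. Correlations used log2(CPM + 1) and 2-sided permutation tests, with 100000 resamples for groups of 10. Library totals had medians of 19023641 (Fc) and 20147652 (Fc(mML1)B3) in HFD mice, and of 23088985 and 25968982 in standard diet mice. A gene at 1 CPM rests on few reads, so values of Vcan carry large counting error. Replicates are separate mice, and p-values measure the spread between them.

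DESeq2 1.42.0, limma-voom (limma 3.58.1), other normalizations and filters, replicate blocks, subsets by file numbering and leaving out each mouse were alternatives. All 9 genes are named. From each matrix list up to 3 genes per direction with the smallest p are named, from each marker list up to 2, and where none passed the 1 with the smallest p may be given. Results of 2 genes that these rules name are not reported here. The 9 genes, the 25 lists and the tests were chosen with earlier results of these data known. Same-numbered mice did not deviate together (at most 3 of 7 pairs correlated above 0.1), so numbers were not used as pairs. Fits and permutation tests were checked on simulated data.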

Additional observations from a re-analysis of the deposited data

Results flagged for a closer look

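Of 36 tests (9 genes in 4 groups), 7 found a mouse farther from the others of its group than Dixon's 95% limit on the scale of log2(CPM + 1), where chance gives about 1 in 20. The tests are not independent, since 1 unusual liver can be flagged for several genes that vary together. In Fc mice on the standard diet, mouse 6 stood above the rest for Bgn (248 CPM, next 208), Dcn (483 CPM, next 381) and Sparc (156 CPM, next 133.4). In Fc(mML1)B3 mice under the HFD, mouse 5 stood above the rest for Dcn (848 CPM, next 571) and below them for Fn1 (860 CPM, next 1120). Its low Fn1 depended on the scaling, since with library totals it was 1035 CPM and the next mouse 1057. Vtn was high in mouse 5 of the Fc mice on the standard diet (3164 CPM, next 2633) and in mouse 1 of the Fc(mML1)B3 mice on that diet (2959 CPM, next 2660). On CPM, a scale tried after seeing the data, 13 passed the limit, these 7 and Bgn, Lum and Sparc of mouse 5 under the HFD, Lum and Tnc of mouse 6 and Postn of Fc mouse 7 under the HFD. Mouse 6 also had the highest myofibroblast, portal fibroblast, cholangiocyte and macrophage sums of its group (421, 127, 504 and 1333 CPM), and mouse 5 under the HFD had a smooth muscle marker sum of 69.4 CPM against a group median of 22.6. Whether cell content had a part in these values was not tested.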

How the results depend on the processing

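The count of passing genes among the 9 was 0 between Fc(mML1)B3 and Fc under the HFD and became 1 (Tnc) with limma-voom or 1 fit of all 36 libraries, and 0 to 1 when single mice were left out. Under the standard diet it was 1 (Sparc) and became 0 without a filter, without robust estimation (chosen after seeing the data), with the replicate block, with 1 fit of all 36 libraries, with 4 Fc libraries, with the thresholds of the study or with a test of the fold limit, and 0 to 1 without single mice. Between experiments it was 6 in Fc mice (3 with the 4 libraries of higher file number) and 5 in Fc(mML1)B3 mice (3 to 6 without single mice), where Fn1 and Postn lost and Tnc gained a call in some alternatives. The interaction count was 0 in every alternative run.

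Signs turned for genes that did not pass. Under the HFD, Dcn was 0.0088 with 6 treated libraries. Under the standard diet, Fn1 was 0.12 with 4 Fc libraries and −0.086 to 0.0041 without single mice. Between experiments in Fc mice, Postn was 0.25 and Vcan 0.15 with limma-voom, Vtn −0.081 with upper-quartile scaling, −0.064 with library totals and −0.032 with 4 libraries, and Vcan 0.12 with 5 libraries. Without single mice, Postn ran from −0.12 to 0.20, Vcan from −0.27 to 0.046 and Vtn from −0.029 to 0.055, and Vcan from −0.49 to 0.064 in Fc(mML1)B3 mice. Interactions turned for Dcn with limma-voom (0.084) and for Dcn (0.0042) and Vcan (0.011) with library totals.

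Replicate numbers did not pair mice. With the replicate block, Sparc under the standard diet had an adjusted p of 0.156, Postn (0.078) and Vtn (−0.0068) turned in Fc mice, Fn1 lost its call (adjusted p = 0.0761) and Tnc gained one (0.0477) in Fc(mML1)B3 mice, and the interactions of Bgn (−0.011), Dcn (0.023), Sparc (−0.14) and Tnc (−0.060) turned. The block moved the calls among all genes from 1927 to 1284 (HFD), 2168 to 1328 (standard diet) and 1258 to 712 (interaction).

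Other counts over all genes that moved by more than 1.5 times were, under the HFD, 3006 with limma-voom, 3085 in 1 fit of all libraries, 718 with 4 treated libraries, 175 with the thresholds of the study and 12 with a test of the fold limit. Under the standard diet they were 772, 965 (4 Fc libraries), 302 and 34 for the last 4 of these. In Fc mice 6573 became 3931 with 4 libraries, and the interaction 2000 with limma-voom. The cause was not tested. The depth limits Vcan, with at most 32 reads in a library.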

Other observations

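Tnc and Postn, 2 glycoproteins of activated fibroblasts at low levels here, varied together in Fc mice on the standard diet (exact permutation test, r = 0.90, adjusted p = 0.00681, rho = 0.85, adjusted p = 0.108, n = 9, and r = 0.81 without the 2 mice farthest from the median of Postn). In the other groups r was −0.03 under the HFD with either protein and −0.07 with Fc(mML1)B3 on the standard diet, and none of these passed. The pair was picked after its values were seen.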
